A study of Homo sapiens with 4 samples.

Results

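Both A375 cultures made resistant to a drug pair were set against the culture made resistant to vemurafenib alone, gene by gene, to find which genes differed from it in the same direction in both and which in opposite directions. A375 is a melanoma cell line with an activating BRAF mutation, and 1 library was made for each of 4 conditions. RV cells were kept on vemurafenib, a BRAF inhibitor, RVC cells on vemurafenib plus cobimetinib and RVT cells on vemurafenib plus trametinib, cobimetinib and trametinib both being inhibitors of MEK. The drugs were given for 10 to 14 days at a concentration below the IC50 and were taken away 24 h before cells were captured on the Chromium v2 system, 10000 cells being loaded per channel. S, the untreated parent culture, is given beside them as background only. All cultures came from the same line, and neither separate resistant clones nor repeat cultures were sequenced here. Cell barcodes were kept where they held at least 500 genes and at most 20% of unique molecular identifiers (UMIs) from mitochondrial genes, which left 21947 cells for RV, RVC and RVT of 28640 in the series. UMIs were summed per gene and library and are given as counts per 1000000 (CPM) over the 32991 gene identifiers listed for every library. The comparison covered 6590 genes whose level, averaged over RV, RVC and RVT, was at least 10 CPM.

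In melanoma with mutant BRAF the signal runs from BRAF through the MEK kinases to the ERK kinases, which enter the nucleus and drive growth factor, cyclin and immediate-early genes. ERK also induces its own brakes, among them the DUSP phosphatases and the SPRY and SPRED proteins. Cells that survive BRAF or MEK inhibition are known for shifts between a pigmented, SOX10- and MITF-driven state and undifferentiated states rich in matrix proteins, cytokines and receptor kinases.

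The 3 libraries were not alike in ways that bear on every shared difference. RV held 4327 cells with a median of 11648 UMIs and 2560 genes, RVC 8307 cells with 4099 UMIs and 1252 genes, and RVT 9313 cells with 2951 UMIs and 1019 genes. The gene list of RV was that of S, whereas RVC and RVT shared another, 703 identifiers being listed only for the former and 547 only for the latter. Annotation and depth therefore cannot be told apart from the second drug in any difference that RVC and RVT share, and a ratio over RV carries the RV value into both comparisons. The summed libraries held 55283706 UMIs in RV, 37311495 in RVC and 28829751 in RVT, so that 3 UMIs, the limit that a count of 0 allows, came to 0.0543 CPM, 0.0804 CPM and 0.104 CPM, in that order. Intervals below are exact 95% intervals and cover counting error only. With 1 library a condition the spread between cultures is unknown, no test was made, and a gene was called by size alone, at least 2-fold from RV. Between RV and RVC 46 barcodes were shared, between RV and RVT 49, and between RVC and RVT 124.

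The line was checked against its lineage markers. SOX10, the transcription factor that defines the neural crest and melanocyte lineage, was at 40.2 CPM in RV, against no UMI in RVC and 19.5 in RVT, against 87.7 CPM in S. SOX10 was thus undetected among 8307 RVC cells, at a depth where 3 UMIs were 0.0804 CPM. MITF, the master regulator of pigment cells, was at 20.1 CPM in RV, against 7.99 in RVC and 41 in RVT. The pigment genes TYR and MLANA held at most 1 UMI in each library, and PMEL was at 0.453 CPM in RV, against 0.107 in RVC and 0.312 in RVT. TYRP1, another melanin enzyme gene, was at 0.0181 CPM in RV, against 4.69 in RVC and 1.67 in RVT, so it went the other way at a low level.

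Of the 6590 genes, 1565 (23.7%) were at least 2-fold higher in RVC than in RV and 1470 (22.3%) at least 2-fold lower. In RVT 2026 (30.7%) were higher and 1539 (23.4%) lower. Higher in both were 1097 genes (16.6%) and lower in both 1099 (16.7%), while 35 (0.531%) were higher in RVC and lower in RVT and 37 (0.561%) lower in RVC and higher in RVT. A further 433 genes were higher in RVC alone, 892 higher in RVT alone, 334 lower in RVC alone and 405 lower in RVT alone. The median gene stood at a log2 ratio of 0.23 in RVC and 0.26 in RVT. With TMM factors of edgeR, 0.863 for RV, 0.969 for RVC and 1.20 for RVT, the median gene moved to 0.06 and -0.21, and the split became 695 genes higher in both against 1370 lower in both. At the border, IL13RA1 was just inside the shared higher genes with log2 ratios of 1.0 in RVC and 1.93 in RVT, and FN3KRP just inside the shared lower genes with -1.0 and -1.49.

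**Figure D1:**
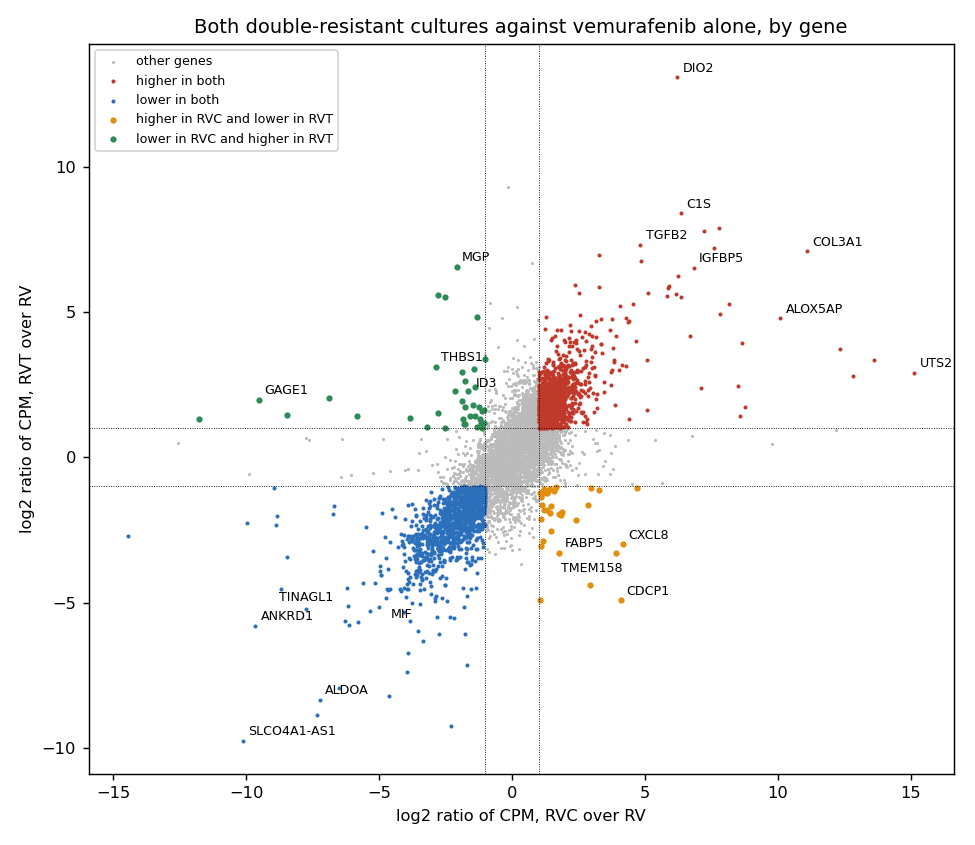
Each point is a gene of at least 10 CPM on average, with the log2 ratio of RVC over RV on the x axis and of RVT over RV on the y axis, genes without a UMI in a library being set to 3 UMIs. Dotted lines mark 2-fold, and the colours mark the 4 classes. Most coloured points lie in the upper right and lower left corners (1097 and 1099 genes), and 35 and 37 genes lie in the other corners.

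The shared genes differed in how alike both cultures were. Among those higher in both, the median log2 ratio was 1.49 in RVC and 1.94 in RVT, and RVT lay farther from RV than RVC did for 794 genes. RVT was at least 2-fold above RVC for 198 of them and at least 2-fold below for 36, and 364 were within 1.25-fold of each other. Among those lower in both, the medians were -2.10 and -2.14, and 427 genes were within 1.25-fold of each other. Differences of at least 10-fold in both cultures were reached by 39 higher and 83 lower genes. Of the shared higher genes 630 were below 10 CPM in RV, and of the shared lower genes 300 were below 10 CPM in RVC and in RVT alike.

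The 10 shared higher genes of the largest size were of several kinds. IGFBP5, a binding protein of insulin-like growth factors (chr2:216672105-216695525, GRCh38), was at 1.79 CPM in RV, against 204 in RVC and 166 in RVT, and at 33.5 CPM in S. It was 114-fold higher (93.3 to 140.1) in RVC and 92.6-fold higher (75.9 to 114) in RVT, and the S level lay between RV and both. TGFB2, a ligand of the TGF-beta receptors (chr1:218346235-218444619), was at 0.652 CPM in RV, against 18.5 in RVC and 104 in RVT. That made it 28.4-fold higher (20.3 to 40.9) in RVC and 159-fold higher (115 to 228) in RVT, with S at 0.866 CPM, beside RV. COL3A1, the chain of type III collagen (chr2:188974320-189012746), had no UMI in RV, against 119 CPM in RVC and 7.39 in RVT, so it was at least 2197-fold higher in RVC and at least 136-fold higher in RVT, against a floor of 3 UMIs in RV, and it had no UMI in S either. This collagen was 16.1-fold lower (14.1 to 18.6) in RVT than in RVC. HTRA1, a secreted serine protease, was at 2.17 CPM in RV, against 45.3 in RVC and 56.1 in RVT, close to each other in both double-resistant cultures.

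Other shared higher genes favoured 1 of the cultures. DIO2, the deiodinase that activates thyroid hormone, had 1 UMI in RV and was at 1.34 CPM in RVC and 158 CPM in RVT, 118-fold higher (89.2 to 159) in RVT than in RVC. C1S, a complement protease whose gene overlaps EMG1, was at 0.217 CPM in RV, against 17.8 in RVC and 73.7 in RVT. ALOX5AP, needed for leukotriene synthesis, was at 0.0906 CPM in RV, against 98.6 in RVC and 2.50 in RVT. The last was thus mostly an RVC gene, as was SLC12A8, a transporter gene, at 0.290 CPM in RV, against 83.1 in RVC and 11.3 in RVT. SEPHS2, which makes selenophosphate for selenoproteins, was even across both, at 0.960 CPM in RV, against 55.6 in RVC and 55.3 in RVT. The zinc finger gene TSHZ2 was at 1.63 CPM in RV, against 55.8 in RVC and 82 in RVT, again similar in both. Of the 10 genes, IGFBP5 alone had an S level more than 10-fold above RV.

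The largest shared lower differences were found in genes of several kinds. ANKRD1, a muscle-type ankyrin protein and a standard target of YAP and TEAD (chr10:90912096-90921276), was at 172 CPM in RV, against 0.215 in RVC and 3.09 in RVT, with S at 99.6 CPM. It was 803-fold lower (408 to 1861) in RVC and 55.8-fold lower (45.3 to 69.5) in RVT. TINAGL1, a secreted matricellular protein, was at 224 CPM in RV, against 3.08 in RVC and 6.46 in RVT, and KCNG1, a potassium channel subunit, at 54.2 CPM in RV, against 1.34 in RVC and 1.39 in RVT. C19orf33 was at 869.6 CPM in RV, against 4.08 in RVC and 23.3 in RVT, and its transcript end was 64% GC. SLCO4A1-AS1, an antisense RNA at chr20:62663019-62666724, had 89.8 CPM in RV, against no UMI in RVC and 0.104 in RVT, which was at least 1116-fold lower in RVC. All 5 were high in RV and S and low in both double-resistant cultures.

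For the other 5 of the largest shared lower genes, other measurements moved with the result. ALDOA, the glycolytic aldolase, was at 1101 CPM in RV, against 7.32 in RVC and 3.40 in RVT, and an identifier that overlaps it, AC093512.2, was listed only for RVC and RVT, with 3 UMIs and none. POLR2J3, a paralog of an RNA polymerase II subunit, was at 81.6 CPM in RV, against 0.509 in RVC and 0.174 in RVT, while a second POLR2J3 identifier, listed only for RVC and RVT, held 6198 and 7773 UMIs. Summing both identifiers would leave no lower level, so POLR2J3 is not read as lower. NME2, a nucleoside diphosphate kinase that overlaps the NME1-NME2 readthrough gene, was at 104 CPM in RV, against 1.85 in RVC and 2.05 in RVT. MIF, a cytokine, was at 708 CPM in RV, against 22.3 in RVC and 20.1 in RVT, its transcript end being 65.4% GC, and FKBP8, a mitochondrial immunophilin, was at 237 CPM in RV, against 8.77 in RVC and 8.33 in RVT with 66.8% GC. The part of annotation and base composition in these 5 was not tested.

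**Figure D2:**
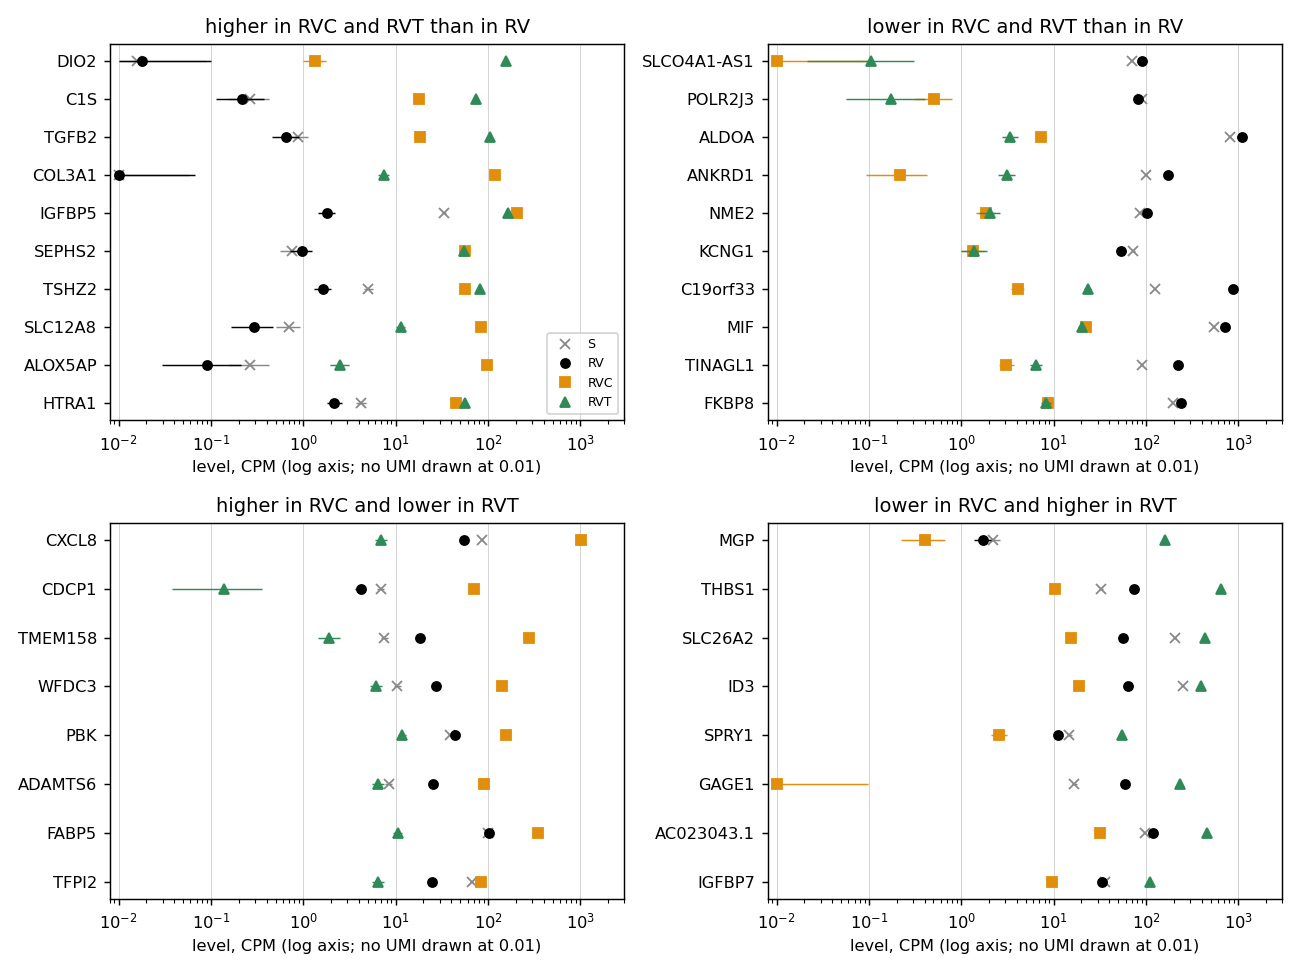
Levels in CPM (log axis) of the named genes of each class in S, RV, RVC and RVT, with exact Poisson 95% intervals of counting as lines, and genes without a UMI drawn at 0.01. In the upper panels RVC and RVT lie on the same side of RV, and in the lower panels RV lies between them. CXCL8 spans 1006 CPM in RVC to 6.94 in RVT.

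Base composition moved with the shared genes. In the last 500 bases of the longest transcript, the end that this assay reads, median GC content was 37.4% for the genes higher in both, 53.2% for those lower in both and 41% for all. In 5 equal bins of GC content from low to high, 5.46%, 8.19%, 9.64%, 16.2% and 43.9% of the genes were lower in both, and 23.0%, 20.7%, 19.2%, 13.9% and 6.45% were higher in both. The genes higher in RVC and lower in RVT, 35 in all, showed no such slope, with 0.455% to 0.607% in each bin. The 37 genes of the reverse class took 0.683%, 0.607%, 0.835%, 0.607% and 0.0759%, least in the bin of highest GC. Both classes left few genes in a bin. Across the 6590 genes, which are not independent replicates, Spearman's correlation with GC was -0.32 for RVC over RV, -0.38 for RVT over RV, -0.17 for RVT over RVC and -0.01 for S over RV. After log2 ratios were centred within 20 bins of GC content, 1029 genes were higher in both, 773 of them among the 1097, and 797 were lower in both, 681 of them among the 1099. Opposite classes then held 38 and 41 genes, 27 of each being in the original classes. The part of base composition in the shared differences was not tested further.

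**Figure D3:**
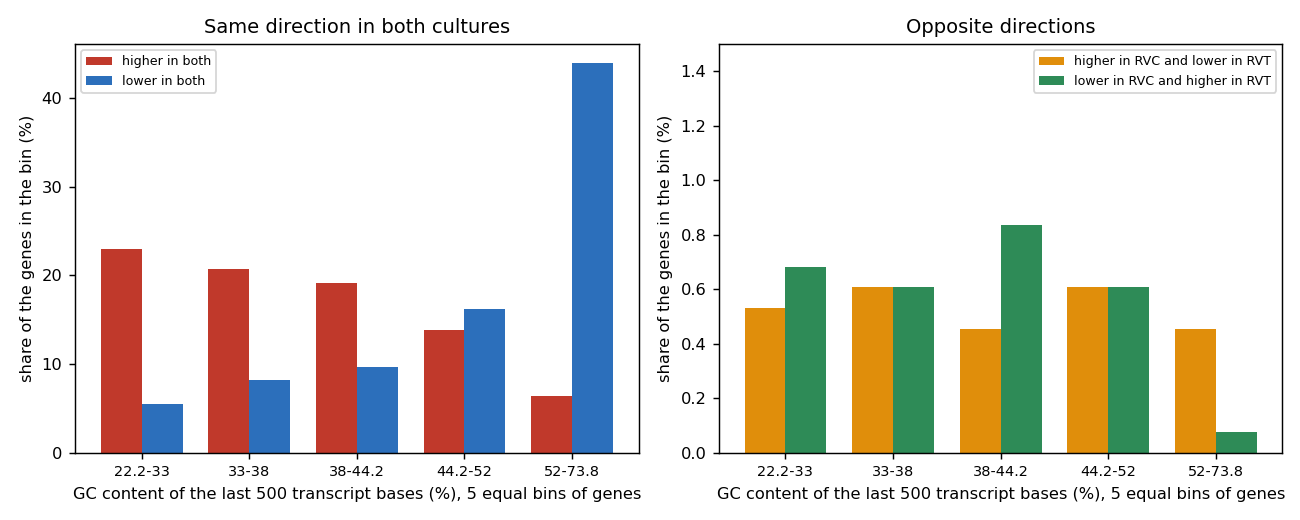
Share of genes in each class (y axis, percent) by 5 equal bins of the GC content of the last 500 transcript bases (x axis, percent), for genes alike in both cultures on the left and opposite on the right. The share lower in both is 5.46% in the lowest bin and 43.9% in the highest.

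The opposite classes are the part of the comparison in which RVC and RVT, which shared an annotation, went to either side of RV. Higher in RVC and lower in RVT were genes of several kinds, among them a chemokine and membrane proteins. CXCL8, the neutrophil-attracting chemokine interleukin 8 (chr4:73740506-73743716), was at 55.5 CPM in RV, against 1006 in RVC and 6.94 in RVT, with S at 86 CPM. It was 18.1-fold higher (17.5 to 18.8) in RVC and 7.99-fold lower (6.92 to 9.27) in RVT than in RV, and 145-fold lower (126 to 167) in RVT than in RVC. TMEM158, a RAS-induced membrane protein (chr3:45224466-45226278), was at 18.5 CPM in RV, against 275 in RVC and 1.91 in RVT, 14.9-fold higher (13.9 to 15.9) in RVC and 9.69-fold lower (7.38 to 13) in RVT. CDCP1, a SRC-linked membrane glycoprotein (chr3:45082278-45146422), was at 4.18 CPM in RV, against 71.3 in RVC and 0.139 in RVT, the RVT value resting on 4 UMIs. Each of the 3 was highest in RVC and lowest in RVT, with S nearer to RV than to either on the log scale.

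The other named members of this class followed. FABP5, a fatty acid binding protein with several processed pseudogenes whose reads could be split, was at 103 CPM in RV, against 352 in RVC and 10.6 in RVT. PBK, a kinase of dividing cells, was at 43.5 CPM in RV, against 158 in RVC and 11.8 in RVT. ADAMTS6, a secreted metalloprotease, was at 25.4 CPM in RV, against 91.1 in RVC and 6.49 in RVT. TFPI2, an inhibitor of serine proteases, was at 24.8 CPM in RV, against 84.4 in RVC and 6.49 in RVT. WFDC3, a secreted protein with a WAP domain, was at 27.3 CPM in RV, against 143 in RVC and 6.07 in RVT. TFPI2 in S, at 66.3 CPM, was nearer to RVC than to RV, whereas PBK and FABP5 in S were within 1.25-fold of RV. Over the 35 genes the median log2 ratio was 1.44 in RVC and -1.68 in RVT, and RVT was at least 10-fold below RVC for 18. Of the 35, 25 were below 10 CPM in RVC or RVT. Kept to cells with at least 1000 genes, 24 of the 35 remained.

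The genes lower in RVC and higher in RVT were also of several kinds. THBS1, thrombospondin 1, a matrix glycoprotein that can activate latent TGF-beta (chr15:39581079-39599466), was at 74.8 CPM in RV, against 10.3 in RVC and 649 in RVT, with S at 32.4 CPM. It was 7.25-fold lower (6.53 to 8.07) in RVC, 8.68-fold higher (8.39 to 8.98) in RVT and 62.9-fold higher (56.9 to 69.8) in RVT than in RVC. ID3, an inhibitor of bHLH factors induced by BMP signals (chr1:23557918-23559794), was at 64.1 CPM in RV, against 19 in RVC and 395 in RVT, and at 249 CPM in S. SPRY1, an ERK feedback inhibitor (chr4:123396795-123403760), was at 11.3 CPM in RV, against 2.57 in RVC and 55 in RVT. MGP, matrix Gla protein, which binds BMPs, was at 1.70 CPM in RV, against 0.402 in RVC and 161 in RVT, 94.6-fold higher (77.1 to 117) in RVT than in RV. All 4 were lowest in RVC, and only in ID3 was the S level nearer to RVT than to RV.

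SLC26A2, a sulfate transporter used in proteoglycan synthesis, was at 56.1 CPM in RV, against 15.3 in RVC and 434 in RVT. IGFBP7, another secreted IGF-binding protein, was at 33.2 CPM in RV, against 9.71 in RVC and 112 in RVT, its RVT log2 ratio of 1.75 becoming 0.63 with TMM factors and GC centring together, and the long non-coding RNA AC023043.1 was at 118 CPM in RV, against 31.8 in RVC and 454 in RVT. GAGE1, a cancer-testis antigen of a near-identical gene family, had 58.9 CPM in RV, against no UMI in RVC and 232 in RVT. Reads of GAGE1 can be split with GAGE2A, which overlaps it and held 97.7 CPM in RV, against 0.456 in RVC and 154 in RVT, so the single gene is uncertain while both were nearly silent in RVC. Over the 37 genes the median log2 ratio was -1.78 in RVC and 1.64 in RVT, and RVT was at least 10-fold above RVC for 23. Of the 37, 27 were below 10 CPM in RVC or RVT.

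The share of cells with at least 1 UMI of a gene was set beside the share that an even spread of the UMIs would give. Free RNA can place UMIs in cells that do not express a gene, and these single-line cultures hold no cell type in which that background could be read, so a cell with a UMI is not read as a cell that expresses the gene. Every cell was thinned to 1500 UMIs, which left out 403 RVC and 852 RVT cells. The even-spread share came from the mean level over all kept cells, with the cells left out here among them. A CXCL8 UMI was present in 59.2% of the cells of RVC, with an interval of 58.2 to 60.3%. In RV it was present in 6.31%, and in RVT in 0.816% (0.635 to 1.03). Were the CXCL8 UMIs spread evenly over RVC cells, 80.6% would hold at least 1, so the share was below that reference. Without thinning the CXCL8 shares were 25.4% in RV, against 79.7% in RVC and 1.5% in RVT, and at 1000 UMIs a cell 4.04%, 50.03% and 0.668%, in the same order. TMEM158 was in 31.7% of RVC cells against 34.6% if even, PBK in 19.98% against 21.3%, and CDCP1 in 10.01% against 10.3%. At a level as low as that of CDCP1 the share would fall little if the UMIs came from part of the cells. No even spread is read from any of these 3 genes, and none was tested.

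Among genes high in RVT, THBS1 was in 50.9% of cells against 64.6% if even, and DIO2 in 16.2% against 21.9%. TGFB2 was in 14.6%. Without thinning the RVT shares were 67.2% for THBS1, 25.4% for DIO2 and 26.4% for TGFB2. Of the plotted genes, IGFBP5 had the lowest ratio of the share found to the even share, 0.480 in RVC and 0.481 in RVT. A UMI of it was in 14.9% of RVC cells and 11.4% of RVT cells, against 31.1% and 23.8% if even. In RV 0.300% of cells had an IGFBP5 UMI, and without thinning the shares were 1.59% in RV, against 22.8% in RVC and 16.3% in RVT. The even-spread share is an arithmetic reference from the mean level per cell and no test was made of the departure.

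**Figure D4:**
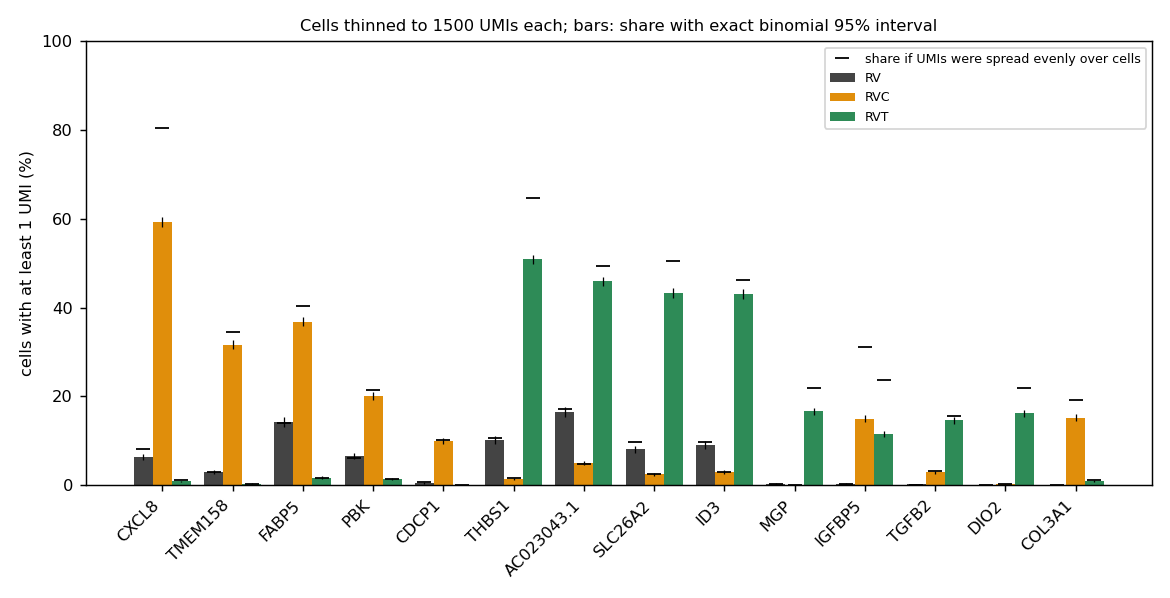
Percent of cells with at least 1 UMI (y axis) for selected genes (x axis) in RV, RVC and RVT after thinning each cell to 1500 UMIs. Bars carry exact binomial 95% intervals, and black dashes give the share expected if the UMIs were spread evenly over the cells. For CXCL8 in RVC the bar is at 59.2% and the dash at 80.6%.

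Promoters are shown for 1 named gene of each class, among those in the RefSeq table of GRCh38.p14. They run from 250 bases before to 50 bases after the start, on the coding strand. Only THBS1 ranked first in its class by the smaller of its 2 log2 ratios. Higher in rank than CXCL8, TGFB2 or ANKRD1 but not shown, CDCP1, TMEM158, SLC12A8, TSHZ2 and ALDOA held no match to the letters below. Also higher in rank, IGFBP5 held TEAD letters, DIO2 AP-1, SEPHS2 E-box and NF-Y, and SLCO4A1-AS1 E-box. Capitals mark every match, on either strand, to TGANTCA (AP-1), GGAATG (TEAD), CACGTG (E-box), CCGGAAG (ETS) or CCAAT (NF-Y). The promoters lie at chr4:73740319-73740618 (CXCL8), chr15:39580829-39581128 (THBS1), chr1:218345086-218345385 (TGFB2) and, on the minus strand, chr10:90921038-90921337 (ANKRD1). These starts, from which the distances below are counted, are those of RefSeq, and for CXCL8, TGFB2 and ANKRD1 they are not the ends of the gene positions given elsewhere in the text, which are from GENCODE.
CXCL8: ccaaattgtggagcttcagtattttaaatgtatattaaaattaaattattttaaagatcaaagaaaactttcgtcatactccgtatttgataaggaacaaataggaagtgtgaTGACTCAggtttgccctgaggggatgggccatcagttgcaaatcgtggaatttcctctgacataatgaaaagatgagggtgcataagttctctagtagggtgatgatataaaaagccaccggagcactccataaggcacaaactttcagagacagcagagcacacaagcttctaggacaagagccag
THBS1: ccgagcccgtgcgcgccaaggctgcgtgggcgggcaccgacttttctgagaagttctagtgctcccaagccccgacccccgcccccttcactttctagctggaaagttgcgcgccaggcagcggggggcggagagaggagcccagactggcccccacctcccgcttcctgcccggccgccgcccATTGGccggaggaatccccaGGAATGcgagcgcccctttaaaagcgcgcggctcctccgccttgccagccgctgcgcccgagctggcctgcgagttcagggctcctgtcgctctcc
TGFB2: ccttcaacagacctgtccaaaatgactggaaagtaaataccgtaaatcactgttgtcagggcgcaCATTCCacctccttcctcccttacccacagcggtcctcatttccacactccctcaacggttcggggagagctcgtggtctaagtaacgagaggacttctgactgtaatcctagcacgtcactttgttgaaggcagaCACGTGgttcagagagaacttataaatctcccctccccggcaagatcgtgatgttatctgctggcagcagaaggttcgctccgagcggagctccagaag
ANKRD1: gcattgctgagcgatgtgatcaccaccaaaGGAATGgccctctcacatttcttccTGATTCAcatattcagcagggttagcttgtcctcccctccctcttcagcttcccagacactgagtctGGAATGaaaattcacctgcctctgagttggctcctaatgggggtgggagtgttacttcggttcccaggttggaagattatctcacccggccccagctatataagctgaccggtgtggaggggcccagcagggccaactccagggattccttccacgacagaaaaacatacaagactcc
The CXCL8 window held 1 AP-1 match, 137 bases before the start. THBS1 held 1 TEAD match 46 bases and 1 NF-Y match 66 bases before it. TGFB2 held 1 TEAD match 185 bases and 1 E-box 49 bases before it. ANKRD1 held 1 AP-1 match 195 bases and 2 TEAD matches 220 and 128 bases before it. Of all 27305 promoters, 7.76% held the AP-1 letters, 14.0% TEAD, 7.43% E-box, 10.7% ETS and 35.7% NF-Y. AP-1 letters were in 43 of 861 promoters of genes higher in both (4.99%), 29 of 864 lower in both (3.36%), 2 of 25 higher in RVC and lower in RVT and 1 of 26 in the reverse class, against 4.67% of the 5337 tested genes with a promoter. TEAD letters were in 12.7%, 11.1%, 3 of 25 and 6 of 26, against 11.04%. A match is a run of letters and says nothing of binding in these cells.

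The gene lists that follow are given by counts of members at least 2-fold from RV, to be read beside the shares over all genes: 16.6% higher in both and 16.7% lower in both, 23.7% higher and 22.3% lower in RVC, and 30.7% higher and 23.4% lower in RVT. The genes of the signalling pathway did not share a direction. Of 19 genes of ERK output and feedback, 15 passed 10 CPM, of which 1 was higher in both, 5 lower in both and 1 lower in RVC and higher in RVT, with a median log2 ratio of -0.81 in RVC and -0.83 in RVT. DUSP4, an ERK phosphatase, was at 203 CPM in RV, against 15.1 in RVC and 27.6 in RVT, low in both double-resistant cultures. DUSP6, a phosphatase with a preference for ERK, was at 65.1 CPM in RV, against 66.5 in RVC and 22.9 in RVT, so RVC was close to RV and RVT was 2.84-fold lower (2.61 to 3.09). FOSL1, an AP-1 subunit stabilized by ERK, was at 342 CPM in RV, against 117 in RVC and 14.9 in RVT, lowest in RVT. CCND1, cyclin D1, was at 342 CPM in RV, against 58.7 in RVC and 28.9 in RVT, but its RVC log2 ratio of -2.54 became 0.18 after centring on GC content and its RVT log2 ratio of -3.56 became -0.82. EGR1, an immediate-early factor, was the gene higher in both, at 19.9 CPM in RV, against 97.7 in RVC and 115 in RVT.

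Among 19 genes of the RAS to ERK cascade, 17 passed, 5 were higher in both and 1 lower in both, with a median of 0.79 in RVC and 0.69 in RVT. NF1, which turns RAS off, was at 13.7 CPM in RV, against 28.9 in RVC and 58.2 in RVT, and SOS1, which turns RAS on, at 3.93 CPM in RV, against 9.97 in RVC and 17.5 in RVT. BRAF itself was at 5.61 CPM in RV, against 10.5 in RVC and 22.5 in RVT, within 2-fold of RV in RVC and so not one of the 5. Levels of these 3 genes were thus higher in RVT than in RVC and in RVC than in RV, though in RVC the log2 ratio of NF1 went from 1.08 to 0.91 with TMM factors and 0.69 with GC centring, and that of SOS1 from 1.34 to 0.94 with GC centring. Of the 15 ERK output genes, by comparison, 7 were at least 2-fold lower in each culture, and 2 in RVC and 4 in RVT were higher.

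Receptor tyrosine kinases showed no common direction, 10 of 20 passing, with 1 higher and 1 lower in both. INSR, the insulin receptor, was at 4.18 CPM in RV, against 14 in RVC and 31.5 in RVT, and EPHA2, an ephrin receptor, at 82 CPM in RV, against 19.8 in RVC and 17.5 in RVT. FGFR1, a fibroblast growth factor receptor, was at 10.3 CPM in RV, against 63.3 in RVC and 11.9 in RVT, high in RVC only, and DDR2, a collagen receptor, was at 24.4 CPM in RV, against 32.7 in RVC and 100.2 in RVT, high in RVT only.

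Of 11 passing AP-1 and immediate-early genes, 3 (27.3%) were higher and 3 lower in both, the other 5 not being 2-fold from RV in the same direction in both cultures. FOS was at 8.01 CPM in RV, against 51.2 in RVC and 67.6 in RVT, and FOSB at 3.24 CPM in RV, against 41.3 in RVC and 67.4 in RVT, both far above RV. JUNB was at 88.4 CPM in RV, against 11.9 in RVC and 13.4 in RVT, well below RV. JUN was at 23.1 CPM in RV, against 33.9 in RVC and 13.3 in RVT, above RV in RVC and below it in RVT but within 2-fold in both. Of the heat shock list, which includes genes that cell handling is known to induce, 4 of 13 were higher in both, 8 were higher in RVC, against 23.7% of all genes, and 4 in RVT, against 30.7%, and HSPA1A, an inducible HSP70, was at 4.02 CPM in RV, against 54.3 in RVC and 32.3 in RVT. Handling of the suspensions was not measured and its part was not tested.

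Lineage genes differed between RVC and RVT. Of 19 lineage genes 5 passed, 3 of them were lower in RVC and higher in RVT and 1 lower in both, with a median of -1.33 in RVC and 1.03 in RVT, and 4 of the 5 were lower in RVC. TFAP2A, a neural crest factor, was at 10.8 CPM in RV, against 4.96 in RVC and 32.5 in RVT, its RVT log2 ratio of 1.60 becoming 0.67 with TMM factors and GC centring together. With ID3 and MITF it formed the opposite group, and SOX10 was the gene lower in both. The RVT log2 ratio of MITF, 1.03, became 0.73 with GC centring and 0.56 with TMM factors, and that of SOX10, -1.04, became -0.36 with GC centring and -0.98 in cells of at least 1000 genes, so both calls end there. SOX9, a factor of the undifferentiated neural crest, was at 8.62 CPM in RV, against 14 in RVC and 13.7 in RVT, under 2-fold above RV in both. S100B, a melanocytic calcium-binding protein below the 10 CPM minimum, had 6.86 CPM in RV and 32.6 in S but 0.278 in RVT, RVC holding no UMI of it.

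Matrix genes were higher in both cultures more often than lower, and more so in RVT. Of 16 passing, 7 were higher in both, 1 lower in both and 1 opposite, with a median of 0.56 in RVC and 2.30 in RVT. COL5A2, a fibrillar collagen chain, was at 4.93 CPM in RV, against 44.2 in RVC and 87.9 in RVT, and LUM, the proteoglycan lumican, at 0.362 CPM in RV, against 21.9 in RVC and 21.8 in RVT. SPARC, a matrix glycoprotein, was at 257 CPM in RV, against 142 in RVC and 1277 in RVT, high in RVT only, and COL9A3 was at 134 CPM in RV, against 0.134 in RVC and 28.3 in RVT, the one lower in both. The sum of 10 fibroblast markers was also above RV in both, but unlike the matrix medians it was higher in RVC than in RVT. It was 2.83 CPM in RV, against 192 in RVC and 50.9 in RVT, COL3A1 being 119 CPM of the RVC sum. In each double-resistant culture 1 of the markers was at 3 UMIs or fewer. In the order RV, RVC and RVT, PDGFRB was at 1.49, 5.79 and 7.74 CPM and POSTN at 0.0724, 18.8 and 1.25 CPM. COL1A2 held no UMI in RV, 9 in RVC and none in RVT. In the same order, epithelial markers summed to 15.4, 9.87 and 1.42 CPM, blood markers to at most 0.815 CPM with CD3E, HBB and PTPRC at 0, and endothelial markers to at most 1.85 CPM. The part of these markers in the matrix result was not tested.

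Of 13 passing TGF-beta and BMP genes, 4 were higher in both, 2 lower in both, 1 higher in RVC and lower in RVT and 2 the reverse, with a median of 0.15 in RVC and 1.53 in RVT. ID1, a relative of ID3, was at 106 CPM in RV, against 29.5 in RVC and 267 in RVT, its RVT log2 ratio of 1.33 becoming 0.86 with TMM factors, and ID2 at 1.65 CPM in RV, against 16.7 in RVC and 45 in RVT. INHBA, a subunit of activin, was at 206 CPM in RV, against 98.5 in RVC and 41.8 in RVT, and TGFB1 at 35 CPM in RV, against 11.2 in RVC and 7.43 in RVT, both lower in both cultures. Of 7 IGF genes, IGFBP3 was at 13.1 CPM in RV, against 6.57 in RVC and 152 in RVT and IGFBP4 at 87.6 CPM in RV, against 16.5 in RVC and 173 in RVT, below RV in RVC and above it in RVT, though each missed 2-fold in 1 culture.

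UTS2, NTS, MMP1 and SUCNR1 were far higher in RVC than in RV or RVT. The list of neuropeptides and secreted signals as a whole had medians of 1.01 in RVC and 0.94 in RVT, with 5 of 11 higher in both. UTS2, the vasoactive peptide urotensin, was at 0.217 CPM in RV, against 7755 in RVC and 1.63 in RVT. A UMI of it was in 85.1% of thinned RVC cells, against 99.9999% if even. NTS, neurotensin, was at 0.0543 CPM in RV, against 679.5 in RVC and 0.555 in RVT, in 39.3% against 70.04% if even. MMP1, the interstitial collagenase, was at 1.30 CPM in RV, against 1154 in RVC and 1.80 in RVT, in 48.6% against 87.4%. SUCNR1, the succinate receptor, had 255 CPM in RVC and no UMI in RV or RVT. The first 2 count as higher in both by ratio, but their RVT levels were below 2 CPM.

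MMP2, a gelatinase, was by contrast high in both, at 33.1 CPM in RV, against 193 in RVC and 381 in RVT. TIMP1, an inhibitor of metalloproteases, was high in RVC only, at 451 CPM in RV, against 1898 in RVC and 357 in RVT. Among 12 cytokine genes 3 were higher in both, 1 lower in both and 2 opposite. CXCL1 was at 66.7 CPM in RV, against 143 in RVC and 15.4 in RVT, its RVC log2 ratio of 1.10 becoming 0.94 with TMM factors and 0.85 with GC centring, and IL6 at 2.88 CPM in RV, against 23.7 in RVC and 4.48 in RVT, at least 2-fold from RV in RVC only. CCL2, a monocyte attractant, was at 2.30 CPM in RV, against 78 in RVC and 7.05 in RVT, highest in RVC, and PTGS2, cyclooxygenase 2, was at 0.398 CPM in RV, against 3.81 in RVC and 49.4 in RVT, highest in RVT. IL1B was at 40.3 CPM in RV, against 3.30 in RVC and 5.62 in RVT and the EGFR ligand AREG at 105 CPM in RV, against 2.95 in RVC and 5.28 in RVT, both lower in both.

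Keratins were mostly lower, whereas actin-linked genes went both ways. Of 6 keratins past the minimum, 4 were lower in both and none higher, with a median of -3.44 in RVC and -1.88 in RVT. KRT18 was at 1553 CPM in RV, against 57.7 in RVC and 139 in RVT and KRT7 at 603 CPM in RV, against 1.47 in RVC and 26.2 in RVT. VIM, vimentin, was at 2597 CPM in RV, against 561 in RVC and 331 in RVT, and PFN1, profilin, at 2664 CPM in RV, against 289.5 in RVC and 248 in RVT, whereas TMSB4X, thymosin beta 4, was at 462 CPM in RV, against 2561 in RVC and 1483 in RVT and MYL6, a myosin light chain, at 678 CPM in RV, against 3339 in RVC and 3289 in RVT. MARCKS, an actin-binding kinase substrate, was at 9.49 CPM in RV, against 84 in RVC and 248 in RVT, and BASP1 at 7.63 CPM in RV, against 18.5 in RVC and 216 in RVT. Of 12 YAP and TEAD genes 2 were higher and 2 lower in both. YAP1 was at 12.2 CPM in RV, against 25.5 in RVC and 51.5 in RVT. Its RVC log2 ratio fell within 2-fold, to 0.90 with TMM factors and 0.80 with GC centring. TEAD1 was at 5.13 CPM in RV, against 19.8 in RVC and 25 in RVT. TEAD4, another TEAD factor, was lower in both, with GC-centred log2 ratios of -2.42 in RVC and -2.05 in RVT. The target ANKRD1 was far lower in both. CYR61, another target, was at 83.1 CPM in RV, against 34.2 in RVC and 92.3 in RVT, so it was within 2-fold of RV in RVT.

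Cell cycle genes separated the cultures. Of 47 passing G2/M genes, 25 were at least 2-fold higher in RVC and 3 in RVT, while 2 were lower in RVC and 15 in RVT, with a median of 1.03 in RVC and -0.35 in RVT. Of 30 passing G1/S genes 19 were lower in RVT and 3 in RVC, and 2 were higher in RVC and lower in RVT. CLSPN, a replication checkpoint protein, was at 32.6 CPM in RV, against 97.8 in RVC and 14.5 in RVT, and in cells of at least 1000 genes its RVT log2 ratio of -1.17 became -0.82. UBE2C, a ubiquitin-conjugating enzyme of mitosis, was at 207 CPM in RV, against 107 in RVC and 23.3 in RVT, and AURKB, a mitotic kinase, at 54.8 CPM in RV, against 68.2 in RVC and 4.30 in RVT. The replication-linked histone HIST1H4C was at 3045 CPM in RV, against 6487 in RVC and 370.5 in RVT, its RVC log2 ratio of 1.09 becoming 0.92 with TMM factors. CDKN1B, the cell cycle inhibitor p27, was at 7.10 CPM in RV, against 8.82 in RVC and 44.9 in RVT, high in RVT only, and CDKN2C, the inhibitor p18, was at 14.1 CPM in RV, against 53.3 in RVC and 102 in RVT, high in both. RVT thus had the lowest levels of the cycling genes named and the highest of both inhibitors.

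BCL2 family genes, p53 targets and genes of the integrated stress and unfolded protein response were more often lower than higher in both. The heat shock list above was not. Of 9 passing BCL2 family genes, 7 were lower in both and none higher, with a median of -1.70 in RVC and -2.75 in RVT. The log2 ratios of BAD, lower in both, went from -3.49 in RVC and -3.01 in RVT to -0.77 and -0.26 with GC centring. BAX, BIK and BCL2L1 stayed at least 2-fold lower in both with it. The death-promoting BAX, at 206 CPM in RV, against 34.1 in RVC and 23.8 in RVT, and BIK, at 39.7 CPM in RV, against 0.563 in RVC and 0.729 in RVT, were lower, and so was the protector BCL2L1, at 54.6 CPM in RV, against 3.19 in RVC and 3.96 in RVT. Of 14 p53 targets 5 were lower in both and none higher, GDF15 being at 142 CPM in RV, against 12.1 in RVC and 2.26 in RVT. Of 18 genes of the integrated stress and unfolded protein response 8 were lower in both and 1 higher, with a median of -1.26 in RVC and -0.41 in RVT, both medians turning positive where the minimum was 50 CPM, with 0.56 in RVC. ASNS, asparagine synthetase, was at 55.5 CPM in RV, against 8.58 in RVC and 6.70 in RVT and PHGDH, the first enzyme of serine synthesis, at 124 CPM in RV, against 11.4 in RVC and 5.31 in RVT, whereas HSPA5, the ER chaperone BiP, was at 51 CPM in RV, against 44.2 in RVC and 109.7 in RVT, 2-fold above RV in RVT but not with TMM factors, at a log2 ratio of 0.63.

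Of 12 NRF2 antioxidant genes, 4 (33.3%) were higher in both and 1 lower. FTL, ferritin light chain, was at 2954 CPM in RV, against 25711 in RVC and 36238 in RVT, TXNRD1, thioredoxin reductase, at 29.2 CPM in RV, against 137 in RVC and 421 in RVT, and GCLM, of glutathione synthesis, at 3.60 CPM in RV, against 29.2 in RVC and 39.3 in RVT. GPX4, which reduces lipid peroxides, was the one lower, at 380.0 CPM in RV, against 21.7 in RVC and 51.5 in RVT, but its log2 ratios of -4.13 in RVC and -2.88 in RVT became -1.41 and -0.14 with GC centring, so the RVT call ends. Of 9 MHC class I genes 2 (22.2%) were higher in both, near the share over all genes, B2M being at 1045 CPM in RV, against 3066 in RVC and 3794 in RVT. FTL, with many processed pseudogenes, and HLA-B, at 107 CPM in RV, against 430.0 in RVC and 619.9 in RVT, whose reads could be split with HLA-C, are uncertain.

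Of 8 passing histone demethylase genes 4 were higher in both and none lower, with a median of 1.12 in RVC and 1.92 in RVT. KDM5B, which removes methyl groups from histone H3, was at 22.9 CPM in RV, against 40.1 in RVC and 122 in RVT, within 2-fold of RV in RVC and so not one of the 4. KDM5A, one of them, was at 16.5 CPM in RV, against 52 in RVC and 85.1 in RVT. Of 4 passing nuclear long non-coding RNAs 3 were higher in both. NEAT1, the paraspeckle RNA, was at 774 CPM in RV, against 1455 in RVC and 7454 in RVT, within 2-fold of RV in RVC and so not one of the 3. MALAT1, one of them and a nuclear speckle RNA, was at 8866 CPM in RV, against 24921 in RVC and 20058 in RVT, its RVT log2 ratio of 1.18 becoming 0.71 with TMM factors. Mitochondrial transcripts took a median of 3.07% of a cell's UMIs in RV, against 3.58% in RVC and 5.77% in RVT.

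Of 20 MYC growth targets 5 were lower in both and none higher, 10 were lower in RVT, against 23.4% of all genes, and 5 in RVC, near the 22.3% of all genes. Of 83 ribosomal protein genes, 5 were higher in both and 17 (20.5%) lower in both, near the 16.7% of all genes. RPS15 was at 3987 CPM in RV, against 330.4 in RVC and 349.6 in RVT, but with GC centring its log2 ratios of -3.59 in RVC and -3.51 in RVT became -0.87 and -0.76, within 2-fold in both. RPL18 was at 3761 CPM in RV, against 313 in RVC and 411 in RVT, while the median of all 83 was 0.04 in RVC and 0.06 in RVT. Of 78 nuclear oxidative phosphorylation genes 7 were higher and 22 (28.2%) lower in both. With GC centring NDUFV1 fell within 2-fold in both, to -0.08 in RVC and -0.36 in RVT, whereas COX5A and NDUFC1 stayed past it. S100A6 was at 14148 CPM in RV, against 5703 in RVC and 1606 in RVT, its RVC log2 ratio of -1.31 becoming -0.79 with GC centring, and MT2A, a metallothionein, at 5887 CPM in RV, against 1305 in RVC and 126 in RVT, both lowest in RVT.

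**Figure D5:**
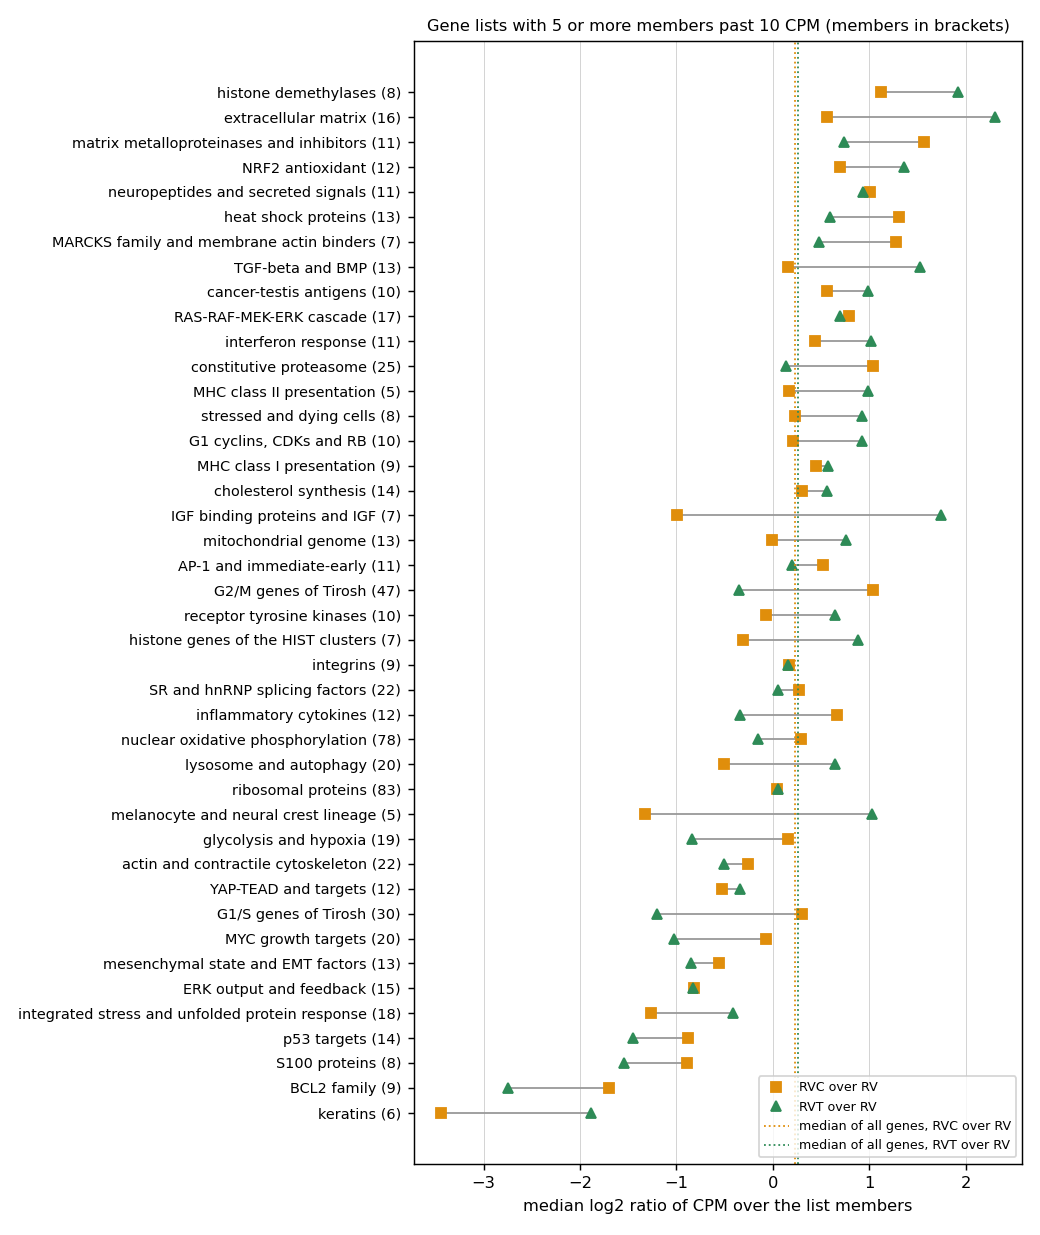
Median log2 ratio (x axis) of RVC over RV (squares) and RVT over RV (triangles) for each gene list with 5 or more members past 10 CPM (y axis, number of members in brackets). Dotted lines give the median of all genes, 0.23 in RVC and 0.26 in RVT. Keratins and BCL2 genes lie lowest, and the IGF and lineage lists have the points farthest apart.

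Genes present in 1 library and all but absent from another, at least 50 CPM against at most 3 UMIs, were few. Present in RV and all but absent from RVC were 4 genes (GAGE1, KRT81, SLCO4A1-AS1 and SPANXC), and 4 were the reverse (COL3A1, MMP3, NTS and SUCNR1). Present in RV and all but absent from RVT were 2 (LCN2 and SLCO4A1-AS1), and 1 was the reverse (DIO2). Between RV and S there was none in either direction. Between the double-resistant cultures, SUCNR1 was present in RVC alone and GAGE1, KRT81, SPANXC and VAV3 in RVT alone, the SPANX and GAGE genes belonging to families whose reads could be split.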

How the data were processed

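Single-cell RNA sequencing of A375 melanoma cells was taken from 1 library each of RV, RVC and RVT, with S as background. For each library the authors deposited a table of UMI counts, in whole numbers and without normalization, with genes in rows and barcodes in columns. bcl2fastq 2.20.0.422, Cell Ranger and GRCh38 are named in the submitters' processing notes, and the annotation and the Cell Ranger version are not given in the sources used here. The study states fewer RV cells and fewer S cells than their tables hold, and no thresholds of its cell filters.

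Cells with at least 500 genes and at most 20% mitochondrial UMIs were kept, which removed 1 RV, 959 RVC and 1114 RVT barcodes. Doublets were kept in the reported values, and an alternative left out the highest scrublet scores of scanpy 1.11.5, 0.8% for every 1000 barcodes. UMIs were summed per library over 32991 shared identifiers, of which 32913 were in GENCODE 29, the annotation used here for positions, overlaps and base composition. Genes averaging at least 10 CPM were compared, a gene without UMIs being taken at 3 UMIs. Intervals are exact: conditional binomial for ratios, Poisson for levels, Clopper-Pearson for shares. With 1 library a condition no p-value was made, and genes at least 2-fold apart were counted by size. Calculations used python 3.11.15, numpy 2.4.6, pandas 2.3.3 and scipy 1.17.1, with TMM factors from edgeR 4.0.16 in R 4.3.3 and figures from matplotlib 3.10.9. The calculation was tested on simulated sums.

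Named genes are, among genes with at least 50 CPM in 1 of the 3 libraries, the 10 shared higher and 10 shared lower genes with the largest smaller log2 ratio, 8 of each opposite class by the same measure, and up to 4 members of each of 48 gene lists by mean log2 ratio and up to 4 by the ratio of RVT over RVC, of which the text gives a part. Some genes that the rule names are not reported here. Lineage and other cell type markers are named as such. Lists, members and rules were chosen with earlier results of these data known. The alternatives were other cell filters, scalings, minimum levels, GC centring, equal weight for every cell, thinned sums and the removal of overlapping genes. Batch integration, self-organizing maps and trajectories of the study were not repeated here.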

Additional observations from a re-analysis of the deposited data

Results flagged for a closer look

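The 35 genes higher in RVC and lower in RVT than in RV, and the 37 genes lower in RVC and higher in RVT, are given here because the second drug went with differences of opposite sign in both cultures. The difference was not tested, since each culture had 1 library. Both sets are far smaller than the shared classes of 1097 and 1099 genes, and CXCL8, TMEM158, CDCP1, THBS1, ID3 and SPRY1 are among them.

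Gene identifiers that were not listed for every library carried a signal that the comparison left out. More than 3 UMIs were held by 176 such identifiers in RV, against 94 in RVC and 85 in RVT, or 0.130%, 0.0423% and 0.0575% of the UMIs. In RV the first was GPX1, a glutathione peroxidase, with 33417 UMIs (604 CPM), listed for RV and S only, so its level in RVC and RVT was not analysed here. In RVC and RVT the first was a second POLR2J3 identifier, with 6198 and 7773 UMIs.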

How the results depend on the processing

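No paired analysis was possible because each condition had 1 library. The counts of all 4 classes were within 1.5 times the reported ones for all deposited barcodes, cells of at least 1000 genes, removed doublets, library sizes over all identifiers, median centring, equal weight for every cell, thinned sums, GC centring, the removal of overlapping genes and intervals wholly past 2-fold. Median centring came near that limit, with 735 genes higher and 1308 lower in both. Under it 24 of the 35 and 29 of the 37 genes moving in opposite ways stayed. With TMM factors 1304 genes were higher in RVT and 695 higher in both. With TMM and GC centring together, a setting chosen after seeing the data, these were 1200 and 685. Of the 37 genes lower in RVC and higher in RVT, 21 stayed with TMM factors and 18 with both. Of the 35 genes higher in RVC and lower in RVT, 27 and 25 stayed, in the same order. With library sizes free of ribosomal and mitochondrial genes 58 genes were lower in RVC and higher in RVT. A minimum of 50 CPM left 1861 genes, so the counts fell: 450 higher and 459 lower in RVC, 382 and 536 in RVT, 247 higher and 373 lower in both, and 12 and 10 in opposite ways. A minimum of 1 CPM let in 12715 genes, with 3139 higher and 2901 lower in RVC, 4431 and 2797 in RVT, 2276 and 1980 in both, and 101 and 133 in opposite ways. Of the 35 genes higher in RVC and lower in RVT, 24 had intervals wholly past 2-fold, as had 26 of the 37 in the reverse class. The list median of the integrated stress and unfolded protein response in RVC turned to 0.56 at 50 CPM, where fewer members were left. Over 139 named genes, 248 log2 ratios were past 2-fold, of which 15 no longer were with GC centring, 11 with TMM factors, 20 with both together, 9 with median centring, 4 with library sizes free of ribosomal and mitochondrial genes and 2 each in cells of at least 1000 genes and with equal weight for every cell, where CCL2 in RVT was one. BASP1 in RVC and CDK6, CCL2 and SPANXC in RVT were among those with both together. Of these, CCND1 in RVC turned to 0.18 with GC centring and 0.0088 with TMM and GC centring, and KRT81 in RVT to 0.056 with GC centring. The cause was not tested. BAD and NDUFV1 are not among the 139 genes. Of the 30 ratios within 2-fold, 5 changed sign with GC centring, 6 with TMM factors and 11 with both, among them TIMP1, CYR61 and FGFR1 in RVT and CDK6 in RVC. Shares of cells depend on the thinning: for shares above 1%, thinning to 1000 UMIs gave a median of 0.697 times and no thinning 2.32 times the value at 1500 UMIs. Depth limits genes with few UMIs: CDCP1 in RVT rests on 4 UMIs and DIO2 in RV on 1.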

Other observations

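Gene lists not described above gave the following counts, beside 16.6% of all genes higher and 16.7% lower in both. Of 13 mesenchymal genes 3 were higher and 4 lower in both and 1 was higher in RVC and lower in RVT. FN1, fibronectin, was at 13 CPM in RV, against 89.3 in RVC and 29.99 in RVT, and TGFBI, a TGF-beta-induced matrix protein, at 166 CPM in RV, against 718 in RVC and 344 in RVT. In RVT both were within 2-fold of RV with TMM factors, at log2 ratios of 0.74 and 0.58, and with GC centring, at 0.75 and 0.91. Of 16 genes of matrix metalloproteinases and inhibitors 11 passed, with 3 higher and 2 lower in both, PLAUR, the urokinase receptor, being at 84 CPM in RV, against 67.4 in RVC and 13.1 in RVT, lower in RVT only. Of 9 integrins 2 were higher and 1 lower in both and 1 was lower in RVC and higher in RVT, and of 7 IGF genes 2 were higher, 1 lower and 1 opposite.

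Of 11 interferon response genes 4 were higher in both, 1 lower and 1 opposite, IFITM2, an antiviral membrane protein, being at 70.04 CPM in RV, against 336 in RVC and 259 in RVT. MHC class I had 2 of 9 higher in both and none lower, and MHC class II 1 of 5 higher and 1 opposite. Of 8 S100 genes 4 were lower in both and none higher, S100A10 being at 1672 CPM in RV, against 254 in RVC and 248 in RVT, and of 2 metallothioneins 1 was lower. Of 10 G1 cyclin, CDK and RB genes 1 was higher and 2 lower, CDK6, a kinase of the G1 phase, being at 33.7 CPM in RV, against 36.2 in RVC and 113 in RVT, higher in RVT only. Of 7 histone genes 1 was higher, 1 lower, 2 higher in RVC and lower in RVT and 2 the reverse.

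Metabolic lists were mixed. Of 19 glycolysis and hypoxia genes 1 was higher and 4 lower in both, of 14 cholesterol synthesis genes 2 were higher and none lower, and of 20 lysosome and autophagy genes 3 were higher and 1 lower. Of 25 proteasome genes 4 were higher and 2 lower in both, but 13 were at least 2-fold higher in RVC and 4 in RVT. Of 22 splicing factors 3 were higher and 1 lower, of 22 actin genes 3 and 5, of 7 MARCKS family and related genes 3 and 0, and of 11 secreted signals 5 and 1. PCSK1, a prohormone convertase, was at 1.10 CPM in RV, against 5.68 in RVC and 67.5 in RVT. The 8 genes listed for stressed and dying cells, all of them mitochondrial, summed to 28547 CPM in RV, against 34609.9 in RVC and 57126 in RVT, and of 13 mitochondrial genome genes 3 were higher and 1 lower in both.

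Of 10 cancer-testis genes 1 was higher in both and 2 were lower in RVC and higher in RVT. SPANXB1, of a family whose reads could be split, was at 1302 CPM in RV, against 0.215 in RVC and 1850.4 in RVT. LINC01419, a long non-coding RNA, was at 0.109 CPM in RV, against 780.4 in RVC and 0.764 in RVT, and at 187 CPM in S, so it was present in S and RVC and nearly absent from RV and RVT. A UMI of it was found in 59.6% of thinned RVC cells and 0.0462% of RV cells.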
